A study of Homo sapiens with 8 samples.

Results

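RNA of IMR90 cells carrying a short hairpin against HuR was compared with RNA of IMR90 cells carrying a control hairpin, in the unprecipitated input libraries of an RNA immunoprecipitation experiment. The comparison covered every gene with at least 50 counts in one of both inputs, which left 13390 of the 57736 gene IDs in the file. IMR90 is a fibroblast line from human fetal lung. The series holds 8 libraries of this line in all, and from its title it asks how loss of the editing enzyme ADAR1 bears on p16INK4a and senescence. The shHuR input was 1 library and the shControl input was 1 library, so no difference below has a replicate check and none carries a p-value. Further libraries used here were the shHuR, shADAR1 and shControl precipitates, made with an antibody against HuR, and the shADAR1 input, with 1 library each. All of these were total RNA of IMR90 cells, and the shHuR, shADAR1 and shControl cells differ in their labels by the hairpin alone. The labels give no hairpin sequence, passage, time or number of clones, so the effect of a hairpin on its target cannot be told apart from other differences between these cultures.

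HuR, encoded by ELAVL1, is an RNA-binding protein of the embryonic lethal abnormal vision family. It binds AU-rich and U-rich stretches, mostly in 3′ untranslated regions, and is known to stabilise many short-lived mRNAs, among them those of cyclins, growth factors and inflammatory mediators. Its abundance is known to decline in senescent fibroblasts, which stop dividing and secrete chemokines, interleukins, proteases and growth factors.

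The shHuR input held 34863880 counts and the shControl input 36717888. Library sizes were put on one scale by TMM, the trimmed mean of M values. The call higher or lower was given when the log2 ratio, with 2 counts added to each library, reached 1 in size, which is a 2-fold difference. Intervals are exact binomial intervals at 95% and cover counting error only, and folds and intervals printed for single genes are on the scaled counts without the added counts. Where a gene had 0 counts in a library, its fold was computed against 3 counts in that library and is given as at least that large. A gene with under 50 counts in one library met the count minimum through the other library alone. RNA was read from bulk cultures, in which fewer cells with a transcript and less of it per cell cannot be told apart.

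The targeted gene was lower in the library labelled with its hairpin. ELAVL1 (ENSG00000066044) had 674 counts in the shHuR input and 4806 in the shControl input, a 6.65-fold lower level (log2 ratio -2.73, -2.85 to -2.62). The shADAR1 input held 3545 ELAVL1 counts. In the precipitates ELAVL1 had 742 counts in shHuR, 23285 in shADAR1 and 27765 in shControl cells, so the shHuR library was the lowest in both kinds of library. The neuronal relatives of HuR were nearly absent: ELAVL2 had 1 count in each input, and ELAVL3 and ELAVL4 had 0 in both.

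Across the 13390 genes, 1610 were higher in the shHuR input (12%), 2123 were lower (15.9%) and 9657 differed by less than 2-fold. The median log2 ratio was -0.03, with quartiles at -0.64 and 0.52. Large differences went more often downward: 211 genes were at least 8-fold higher and 403 at least 8-fold lower. At 32-fold and beyond the order was the other way round, with 78 genes higher and 67 lower. The genes called higher took 17.2% of the shHuR input counts and 5.85% of the shControl input counts, and those called lower took 4.34% of the shHuR input counts and 13.2% of the shControl input counts. A gene at 0 counts was found 30 times in the shHuR input and 42 times in the shControl input.

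**Figure D1:**
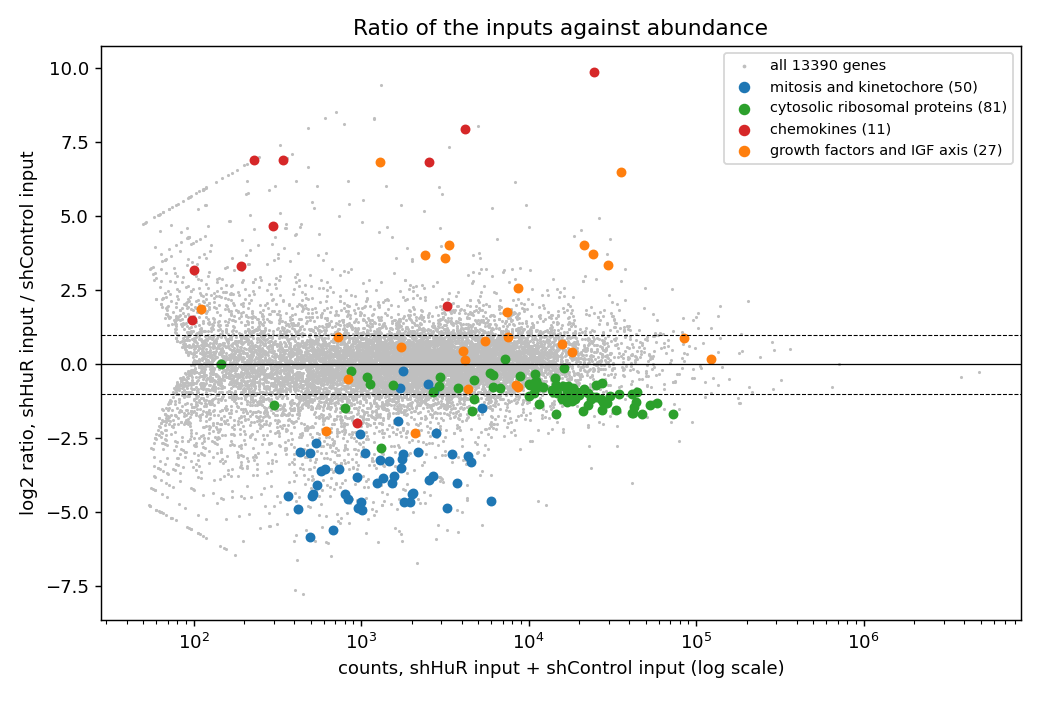
Log2 ratio of the shHuR input to the shControl input (vertical axis) against the summed counts of both libraries (horizontal axis, log scale), 1 point a gene. Grey points are all 13390 genes, coloured points are 4 gene lists, and dashed lines mark 2-fold: the 50 mitosis genes lie below 0, while 10 of the 11 chemokines lie above the upper line.

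Genes of cell division were lower. Of 50 counted genes of mitosis and the kinetochore, 46 were lower and 0 higher, with a median log2 ratio of -3.78 against -0.03 over all genes, and all 50 had ratios below 0. Summed over the list, they made up 282 CPM (counts scaled to library size) in the shHuR input and 2090.4 in the shControl input. CENPA, the histone H3 variant of centromeres, had 6 counts in the shHuR input and 487 in the shControl input, a 75.7-fold lower level. NEK2, a centrosome kinase, had 11 counts in the shHuR input and 665 in the shControl input (56.4-fold lower). KIF4A, a chromosome-bound motor of the kinesin family, had 28 counts in the shHuR input and 980 in the shControl input (32.6-fold lower). In each of these 3 the shHuR library held under 30 counts. SGO1, which guards cohesion at centromeres, had 11 counts in the shHuR input and 411 in the shControl input (34.8-fold lower). The 4 members under 2-fold were ECT2, AURKA, INCENP and SMC2, named here after their values were seen. Their ratios ran from -0.92 for ECT2 (905 shHuR and 1836 shControl counts) to -0.21 for SMC2 (790 shHuR and 983 shControl counts).

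Many promoters of the mitosis genes held the same short letters. TTTGAA, the core of the cell cycle homology region (CHR) through which repressor and activator complexes act on genes of late cell cycle, stood on either strand in 30 of the 44 mitosis promoters found in the RefSeq table (68.2%). The same letters stood in 9.75% of the 10202 promoters of counted genes, in 12.8% of 1496 promoters of genes called lower and in 10.6% of 1130 promoters of genes called higher. Among 253 promoters of genes at least 8-fold lower the share was 25.3%. A CCAAT box was in 77.3% of the mitosis promoters, in 37.0% of all and in 37.2% of those of genes called lower. BUB1, NEK2 and KIF20A were searched for a window and had 0 TTTGAA in the 250 bases upstream of the start. The windows that follow lie upstream of the transcription start, are taken from RefSeq on GRCh38.p14, read 5′ to 3′ along the gene, and show TTTGAA in capitals in 4 mitosis genes.
CDK1, chr10:60778148-60778197, plus strand: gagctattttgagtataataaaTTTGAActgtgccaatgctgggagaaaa
CCNB2, chr15:59105095-59105144, plus strand: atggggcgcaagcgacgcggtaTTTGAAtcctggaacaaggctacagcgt
CENPA, chr2:26786006-26786055, plus strand: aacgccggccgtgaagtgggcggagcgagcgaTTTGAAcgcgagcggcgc
CDC20, chr1:43358894-43358943, plus strand: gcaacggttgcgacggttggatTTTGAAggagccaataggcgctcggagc
These 4 genes were all called lower. CDK1, the kinase that drives entry into mitosis, had 32 shHuR and 764 shControl counts, and CDC20, an activator of the anaphase-promoting complex, had 84 shHuR and 1936 shControl counts. Both were picked for their promoters, with their values known.

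DNA replication genes were lower by smaller folds. Of 47 counted, 37 were lower and 0 higher, with a median of -1.84. POLE2, a subunit of the leading-strand polymerase, had 4 counts in the shHuR input and 142 in the shControl input (33.1-fold lower). GINS2, a subunit of the replicative helicase complex, had 26 counts in the shHuR input and 561 in the shControl input (20.1-fold lower). CDT1, which licenses origins, had 53 counts in the shHuR input and 1044 in the shControl input (18.4-fold lower), and CLSPN, an adaptor of the replication checkpoint, had 29 counts in the shHuR input and 488 in the shControl input (15.7-fold lower). Every one of these 4 was at least 10 times more abundant in the shControl input. The letters TTTNNCGC, a core of sites for E2F factors, stood on either strand in 21 of 40 promoters of replication genes (52.5%), against 10.7% of all promoters and 11.4% of mitosis promoters. Among 1496 promoters of genes called lower the share was 11.6%, and among 253 of genes at least 8-fold lower 12.6%. Both are near the share of all promoters. TTTGAA, in turn, stood in 2.50% of the replication promoters. MYBL2, CDC6, TK1 and RRM2 were searched as well and had 0 such sites in the 250 bases upstream of the start. E2F sites in capitals are shown for a helicase subunit and for an E2F gene itself, in which 2 of the sites overlap.
MCM7, chr7:100101398-100101447, minus strand: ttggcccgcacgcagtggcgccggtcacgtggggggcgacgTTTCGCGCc
E2F1, chr20:33686386-33686435, minus strand: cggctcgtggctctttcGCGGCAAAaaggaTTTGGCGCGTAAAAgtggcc

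Enzymes that supply deoxynucleotides had 0 higher and 13 lower of 21, with a median of -1.18. Thymidine kinase TK1 had 106 counts in the shHuR input and 2481 in the shControl input (21.8-fold lower). The small subunit of ribonucleotide reductase, RRM2, had 172 counts in the shHuR input and 2926 in the shControl input (15.9-fold lower), and thymidylate synthase, TYMS, had 180 counts in the shHuR input and 2743 in the shControl input (14.2-fold lower). These 3 enzymes are made mainly in S phase. RRM2B, the p53-induced form of the reductase subunit, is not in this list but among the p53 targets; it was called higher, with 4902 shHuR and 2460 shControl counts, and had a log2 ratio of 0.82, under 2-fold, with GC and length trends removed. Genes of homologous recombination and Fanconi repair had 0 higher and 19 lower of 23 (median -1.87). The helicase BLM had 6 counts in the shHuR input and 277 in the shControl input (43.0-fold lower), and RAD54L, a motor of strand exchange, had 19 counts in the shHuR input and 354 in the shControl input (17.4-fold lower).

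Histones followed the same order. Of 49 replication-dependent histone genes, 20 could be matched to an ID and counted, and 16 of these were lower and 0 higher (median -3.18); the other 29 are not analysed here. Linker histone H1-3 had 66 counts in the shHuR input and 3705 in the shControl input, and H1-5 had 110 counts in the shHuR input and 5174 in the shControl input. Members of these families are alike in sequence, so that their single values are uncertain. Replication-independent histones had 0 higher and 5 lower of 10 (median -0.97), with H2AX, the variant phosphorylated at DNA breaks, at 428 shHuR and 1828 shControl counts. Proteins of the nuclear envelope and the high mobility group (HMG) had 0 higher and 9 lower of 17 (median -1.14). Lamin B1, LMNB1, had 63 counts in the shHuR input and 1709 in the shControl input, and the lamin B receptor LBR had 109 counts in the shHuR input and 1133 in the shControl input (9.69-fold lower). HMGB2, an architectural chromatin protein, had 264 counts in the shHuR input and 2497 in the shControl input (8.82-fold lower). HMGA1 was among the 8 genes with a symbol that lost most CPM, with 10567 counts in the shHuR input and 68747 in the shControl input (6.07-fold lower).

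Regulators of the cycle lay on both sides. Among 31 genes of the RB, E2F and MYB network, 4 were higher and 13 lower (median -0.71). These are 12.9% and 41.9%, against 12% and 15.9% of all genes. The late-cycle transcription factors MYBL2 (29 shHuR and 1643 shControl counts) and FOXM1 (159 shHuR and 4136 shControl counts) were both lower. The activator E2F2 had 9 counts in the shHuR input and 199 in the shControl input (20.6-fold lower). All 3 D-type cyclins, the partners of CDK4 and CDK6, were higher. CCND2 had 17749 counts in the shHuR input and 944 in the shControl input, a 20.2-fold higher level (log2 ratio 4.33, interval 4.24 to 4.43). CCND3 had 6101 counts in the shHuR input and 3056 in the shControl input (2.14-fold higher), and CCND1, already abundant, had 121670 counts in the shHuR input and 63899 in the shControl input (2.04-fold higher). CCND1 stood at the limit: with scaling by total counts without the 2 most abundant IDs its log2 ratio was 0.95, under 2-fold. CDK4 itself was lower (1247 shHuR and 6551 shControl counts, named after its values were seen).

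Inhibitors of cyclin-dependent kinases did not move as one. Of 20 counted genes of inhibitors and Polycomb, which silences the INK4 locus, 1 was higher and 6 lower (median -0.44). CDKN2B, which encodes p15, was the one called higher (2977 shHuR and 1349 shControl counts, 2.37-fold higher). Its neighbour CDKN2A, which encodes p16 and ARF, had 1947 counts in the shHuR input and 1141 in the shControl input and was 1.83-fold higher, under the limit, but reached a log2 ratio of 1.29 once the dependence on GC content and length of transcripts was removed. CDKN1A, which encodes p21, had 50339 counts in the shHuR input and 33593 in the shControl input (1.61-fold higher). Other inhibitors were lower. CDKN1C, or p57, had 14 counts in the shHuR input and 467 in the shControl input (31.1-fold lower), and CDKN2C, or p18, had 37 counts in the shHuR input and 669 in the shControl input (16.9-fold lower). CBX2, a Polycomb reader, had 31 shHuR and 400 shControl counts, and EZH2, the Polycomb methyltransferase, had 120 shHuR and 671 shControl counts (named after its values were seen). The deacetylase SIRT1 had 518 counts in the shHuR input and 1038 in the shControl input (1.87-fold lower).

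**Figure D2:**
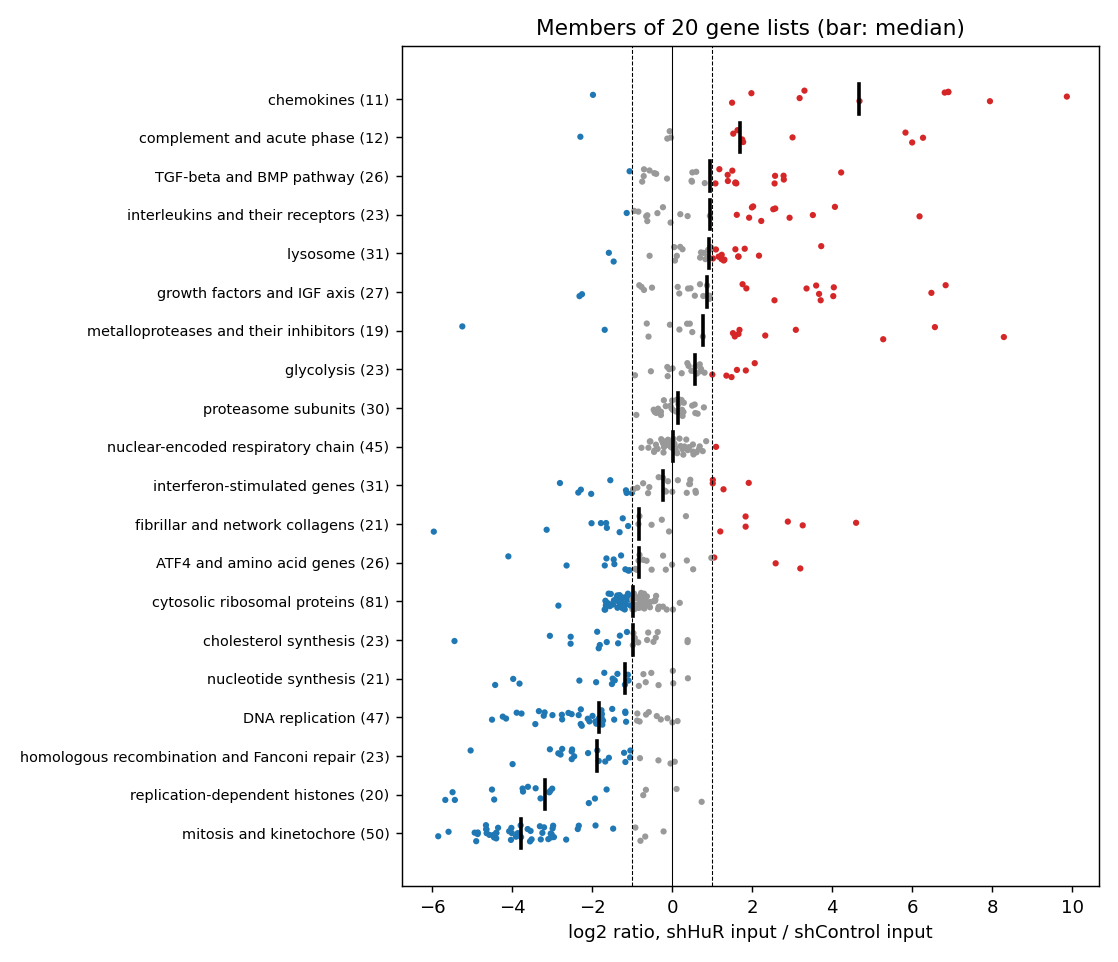
Log2 ratio of the shHuR input to the shControl input for each counted member of 20 gene lists, with the number of members in brackets, red for called higher, blue for called lower and grey for under 2-fold; the bar is the list's median and dashed lines mark 2-fold. List medians run from -3.78 for mitosis to 4.68 for chemokines, while the proteasome (0.14) and the respiratory chain (0.03) sit at about 0.

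Chemokines were higher. Of 22 chemokine genes, 20 had an ID and 11 had enough counts, and of these 11, 10 were higher and 1 lower, with a median of 4.68. Several of the 11, such as CCL20 and CXCL6, met the minimum of 50 counts through the shHuR library alone, and with a minimum of 10 counts the median of the list was 3.25. The 20 genes together made up 1015 CPM in the shHuR input and 44.5 in the shControl input. CXCL8, a neutrophil attractant also called interleukin-8, had 24392 counts in the shHuR input and 26 in the shControl input (1006-fold higher, log2 ratio 9.97, interval 9.42 to 10.59). CXCL1, which acts on the same receptor, had 4142 counts in the shHuR input and 16 in the shControl input (278-fold higher). CXCL6 had 340 counts in the shHuR input and 1 in the shControl input; its log2 ratio was 8.51, with a wide interval from 6.02 to 13.82. CCL20, a ligand of CCR6, had 229 counts in the shHuR input and 0 in the shControl input. In all 4, nearly all counts lay in the shHuR library. CXCL12, which holds stem and immune cells in tissues, was the exception with 180 counts in the shHuR input and 767 in the shControl input (3.97-fold lower). CXCL1 and CXCL2, like CXCL5 and CXCL6, are close copies, so reads could have been shared between them.

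Chemokine promoters carried letters of NF-kB sites. GGNNTTTCC on either strand stood in 8 of the 10 chemokine promoters in the table (80.0%) and in 10 of 17 promoters of NF-kB pathway genes (58.8%), against 6.69% of all promoters. The share was 7.17% among genes called higher and 12.4% among the 137 at least 8-fold higher, the first being close to the share of all promoters. NF-kB letters were not alone in this. TGANTCA, the letters of AP-1 sites, stood in 13.1% of the same 137, in 6.64% of genes called higher and in 4.43% of all. Median GC content was 55.7% in these 137 promoters and 65.3% in all, and its part in these shares was not tested. The letters of NF-kB sites are in capitals in windows upstream of 5 chemokine genes, from the same RefSeq table. The windows of CXCL5 and CXCL6, which are close copies, are alike.
CXCL8, chr4:73740458-73740507, plus strand: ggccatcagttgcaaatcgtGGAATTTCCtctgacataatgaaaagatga
CXCL1, chr4:73869320-73869369, plus strand: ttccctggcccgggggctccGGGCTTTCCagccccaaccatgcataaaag
CXCL5, chr4:73998738-73998787, minus strand: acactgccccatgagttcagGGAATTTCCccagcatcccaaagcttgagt
CXCL6, chr4:73836569-73836618, plus strand: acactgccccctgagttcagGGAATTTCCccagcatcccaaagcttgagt
CCL20, chr2:227813743-227813792, plus strand: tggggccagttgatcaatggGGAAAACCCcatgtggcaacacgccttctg

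Interleukins and their receptors had 11 higher and 1 lower of 23 counted genes (median 0.94). IL1A, the membrane-bound alarm cytokine of senescent cells, had 206 counts in the shHuR input and 1 in the shControl input, a log2 ratio of 7.79 (5.29 to 13.10). IL1B had 543 counts in the shHuR input and 49 in the shControl input (11.9-fold higher), and CSF2, a growth factor of granulocytes and macrophages, had 93 counts in the shHuR input and 4 in the shControl input (24.9-fold higher). IL18 had 77 counts in the shHuR input and 9 in the shControl input (9.18-fold higher). These values place 3 cytokines of the interleukin-1 family, IL1A, IL1B and IL18, on the higher side. IL32 was lower, with 479 counts in the shHuR input and 1131 in the shControl input (2.20-fold lower), and at -0.93 on the log2 scale, under 2-fold, with GC and length trends removed.

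Complement and acute-phase genes stood out in the same direction, with 8 higher and 1 lower of 12 and a median of 1.69. C3, the central complement component, had 2864 counts in the shHuR input and 46 in the shControl input (66.8-fold higher, log2 ratio 6.06, interval 5.64 to 6.51). The serum amyloid genes SAA1 (147 shHuR and 0 shControl counts) and SAA2 (108 shHuR and 0 shControl counts) were seen in the shHuR input alone. They are near-identical copies and uncertain one by one. C3, SAA1 and SAA2 met the minimum of 50 counts through the shHuR library alone. CD55, which shields cells from complement, had 659 counts in the shHuR input and 86 in the shControl input (8.22-fold higher). C1R, a protease of the classical pathway, was lower with 299 counts in the shHuR input and 1580 in the shControl input (4.93-fold lower).

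Proteases and their inhibitors followed. Among 19 metalloproteases and inhibitors, 9 were higher and 2 lower (median 0.77). ADAMTS5, an aggrecan-cleaving enzyme, had 5885 counts in the shHuR input and 161 in the shControl input (39.2-fold higher). The interstitial collagenase MMP1 had 4512 counts in the shHuR input and 566 in the shControl input (8.55-fold higher), and MMP10, a stromelysin, had 181 counts in the shHuR input and 0 in the shControl input. The inhibitor TIMP4 went the other way, with 1 count in the shHuR input and 117 in the shControl input (log2 ratio -6.77, -12.09 to -4.26). In the plasminogen system, 5 of 10 genes were higher and 1 lower (median 0.85). SERPINB2, the inhibitor PAI-2, had 825 counts in the shHuR input and 10 in the shControl input (88.5-fold higher). SERPINE2, protease nexin 1, had 25346 counts in the shHuR input and 887 in the shControl input (30.6-fold higher). SERPINF1, an anti-angiogenic serpin, was lower with 125 counts in the shHuR input and 750 in the shControl input (5.59-fold lower).

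Growth factors and the insulin-like growth factor axis had 11 higher and 2 lower of 27 (median 0.87). IGFBP3, a binding protein that sequesters IGFs, had 35109 counts in the shHuR input and 420 in the shControl input (89.6-fold higher, log2 ratio 6.49, interval 6.35 to 6.63). INHBA, the subunit of activin A, had 20069 counts in the shHuR input and 1306 in the shControl input (16.5-fold higher), and the ErbB ligand NRG1 had 3130 counts in the shHuR input and 204 in the shControl input (16.5-fold higher). The related binding proteins IGFBP6 (329 shHuR and 1764 shControl counts) and IGFBP2 (99 shHuR and 514 shControl counts) were lower, so that members of the same family lay on both sides. ANGPTL4, an inhibitor of lipoprotein lipase, had 1283 counts in the shHuR input and 10 in the shControl input (138-fold higher). Genes of TGF-beta and BMP signalling had 13 higher and 1 lower of 26 (median 0.95). The ligand TGFB2 had 6150 counts in the shHuR input and 351 in the shControl input (18.8-fold higher) and the ligand BMP2 had 2451 counts in the shHuR input and 378 in the shControl input (6.95-fold higher). The BMP target genes ID3 (6593 shHuR and 1024 shControl counts) and ID1 (2006 shHuR and 360 shControl counts), inhibitors of differentiation factors, were both higher. The co-receptor TGFBR3 was the one lower gene, with 314 shHuR and 706 shControl counts.

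In the signalling and response lists that follow, members were called on both sides. Over all genes 12% were higher and 15.9% lower. Prostaglandin genes, with 16.7% on either side, were near these shares. MHC class I genes had 6.25% higher and 18.75% lower, and interferon-induced genes 12.9% higher and 25.8% lower. NF-kB genes, with 25% higher and 20% lower, were above both. Of 20 NF-kB pathway genes, 5 were higher and 4 lower (median 0.14): the nuclear co-activator NFKBIZ had 4970 counts in the shHuR input and 568 in the shControl input (9.38-fold higher), and the NF-kB subunit RELB had 282 counts in the shHuR input and 997 in the shControl input (3.30-fold lower). AP-1 and immediate early genes had 4 higher and 6 lower of 21 (median -0.50). EGR1 (1440 shHuR and 5704 shControl counts) and FOS (119 shHuR and 471 shControl counts), both induced within minutes of a growth signal, were lower, and the nuclear receptors NR4A3 (144 shHuR and 28 shControl counts) and NR4A2 (1125 shHuR and 265 shControl counts) were higher. The prostaglandin pathway had 2 higher and 2 lower of 12: the inducible cyclooxygenase PTGS2 had 831 counts in the shHuR input and 19 in the shControl input (46.9-fold higher), while the receptor PTGER2 had 206 counts in the shHuR input and 3461 in the shControl input (15.7-fold lower). Of 31 genes induced by interferon, 4 were higher and 8 lower (median -0.23), from the RNA-binding protein IFIT2 at 413 shHuR and 116 shControl counts to the oligoadenylate synthase OAS3 at 120 shHuR and 911 shControl counts. MHC class I and peptide loading had 1 higher and 3 lower of 16: HLA-E was higher (6006 shHuR and 2767 shControl counts), and the immunoproteasome subunits PSMB9 (58 shHuR and 487 shControl counts) and PSMB8 (352 shHuR and 1102 shControl counts) were lower.

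**Figure D3:**
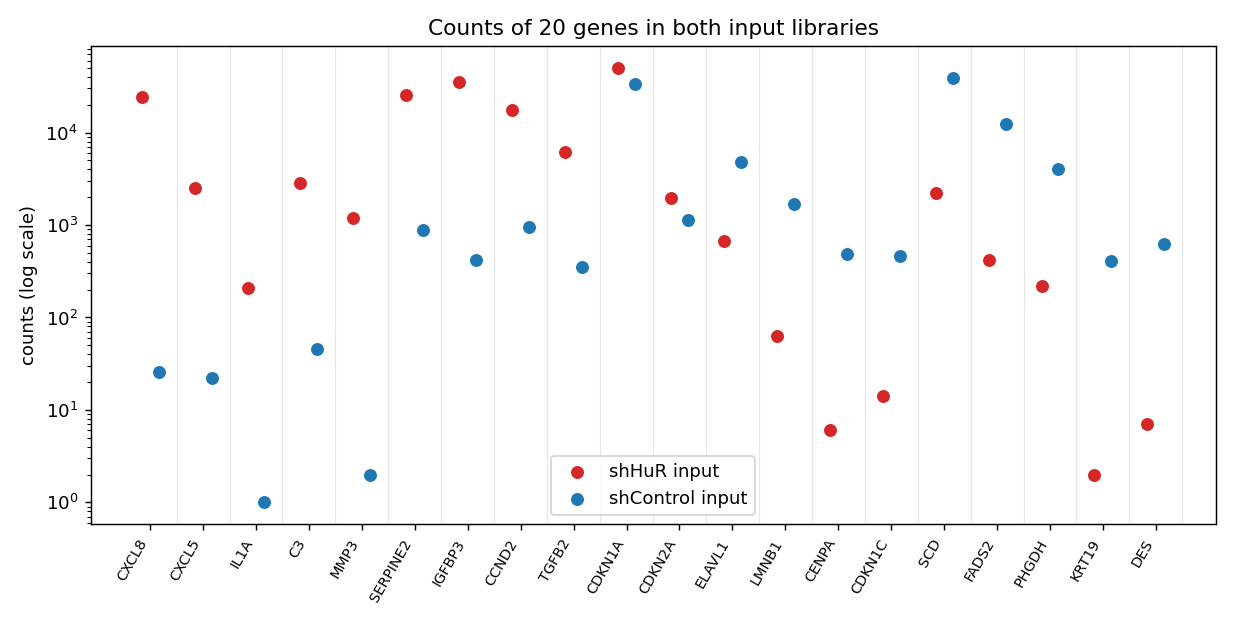
Counts (log scale, not scaled for library size) of 20 genes named in the text, with the shHuR input left (red) and the shControl input right (blue) for each gene, 1 library a point. CXCL8 has 24392 counts in the shHuR input and 26 in the shControl input, while CENPA has 6 in the shHuR input and 487 in the shControl input.

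Matrix genes were rearranged within families. Collagens had 6 higher and 9 lower of 21 (median -0.82, or -0.27 with GC and length trends removed). COL11A1, a minor fibrillar chain, had 2843 counts in the shHuR input and 124 in the shControl input (24.6-fold higher). COL8A1, of a short network collagen, had 8021 counts in the shHuR input and 894 in the shControl input (9.62-fold higher), and the basement membrane chain COL4A1 had 22067 counts in the shHuR input and 3188 in the shControl input (7.42-fold higher). Against these, the chains of collagen VI that were called were lower, COL6A2 with 5199 counts in the shHuR input and 22534 in the shControl input (4.04-fold lower) and COL6A3 with 10837 counts in the shHuR input and 39908 in the shControl input (3.43-fold lower). COL1A1, the main chain of collagen I, had 49849 counts in the shHuR input and 132786 in the shControl input (2.48-fold lower), and with the trends removed its log2 ratio was -0.92, under 2-fold. Matrix glycoproteins and proteoglycans had 10 higher and 6 lower of 23 (median 0.88). THBS1, thrombospondin 1, had the largest gain in CPM of any counted gene, with 164303 counts in the shHuR input and 40380 in the shControl input (4.36-fold higher, log2 ratio 2.13, interval 2.11 to 2.14). Its relative THBS2 was lower, with 187 counts in the shHuR input and 1007 in the shControl input (5.02-fold lower). The proteoglycans LUM (2785 shHuR and 563 shControl counts) and BGN (203 shHuR and 1750 shControl counts) also went opposite ways, and so did FBLN5 (7102 shHuR and 2032 shControl counts) and FBLN1 (364 shHuR and 3440 shControl counts), both fibulins.

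Contractile and cytoskeletal lists likewise had members called on both sides. Shares higher and lower were 26.3% and 21.1% for smooth muscle contractile genes and 23.5% and 17.6% for YAP and TEAD targets. They were 23.1% and 38.5% for keratins and desmosome genes and 26.7% and 40% for integrins, more of them lower than higher. Over all genes they were 12% and 15.9%. Smooth muscle contractile genes had 5 higher and 4 lower of 19 (median -0.20). SYNPO2, an actin-bundling protein of the Z-disc, had 9620 counts in the shHuR input and 416 in the shControl input (24.8-fold higher), and ACTA2, smooth muscle actin, had 23636 counts in the shHuR input and 9757 in the shControl input (2.60-fold higher). The intermediate filament gene DES had 7 counts in the shHuR input and 625 in the shControl input (83.3-fold lower). Among keratins and desmosome genes, with 3 higher and 5 lower of 13, KRT7 had 341 counts in the shHuR input and 13 in the shControl input (28.1-fold higher) and KRT19 had 2 counts in the shHuR input and 412 in the shControl input (log2 ratio -7.59, -10.64 to -5.72). Of 15 integrins, 4 were higher and 6 lower, with ITGAV, the common partner of RGD-binding integrins, at 6460 shHuR and 2624 shControl counts and ITGA7, a laminin receptor subunit, at 18 shHuR and 106 shControl counts. Targets of YAP and TEAD had 4 higher and 3 lower of 17 (median -0.13); the cardiac repeat protein ANKRD1 (3347 shHuR and 20 shControl counts), tissue factor F3 (18291 shHuR and 2789 shControl counts) and CCN2 (24798 shHuR and 5315 shControl counts) were higher, while the factors TEAD4 (127 shHuR and 561 shControl counts) and TEAD2 (1303 shHuR and 4652 shControl counts) were lower.

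In developmental pathways single ligands stood far apart. Wnt genes had 9 higher and 5 lower of 26 (median 0.34). WNT16, a ligand reported in stressed fibroblasts, had 977 counts in the shHuR input and 36 in the shControl input (29.1-fold higher), and the receptor agonist RSPO3 had 414 counts in the shHuR input and 16 in the shControl input (27.7-fold higher). The antagonist DKK2 had 94 counts in the shHuR input and 0 in the shControl input. The ligand WNT2 went the other way, with 7 counts in the shHuR input and 214 in the shControl input (28.5-fold lower), and the antagonist FRZB had 0 counts in the shHuR input and 113 in the shControl input. Notch and ephrin genes had 3 higher and 4 lower of 14, with the ephrin EFNA5 at 1621 shHuR and 300 shControl counts and the receptor EPHB4 at 999 shHuR and 4833 shControl counts; their median of -0.43 turned to 0.30 with GC and length trends removed.

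In both lists of lipid synthesis the called genes were all lower, and 12 of the 23 cholesterol genes and 11 of the 16 fatty acid genes were not called. Cholesterol synthesis genes had 0 higher and 11 lower of 23 (median -0.98), and fatty acid synthesis genes had 0 higher and 5 lower of 16 (median -0.11). INSIG1, a sterol sensor that is itself a target of the sterol-regulated factors SREBP, had 59 counts in the shHuR input and 2833 in the shControl input (44.8-fold lower). SCD, which makes monounsaturated fatty acids, had 2240 counts in the shHuR input and 38933 in the shControl input (16.2-fold lower). FADS2, a desaturase of polyunsaturated fatty acids, had 423 counts in the shHuR input and 12319 in the shControl input (27.2-fold lower), and its neighbour FADS1 had 1242 counts in the shHuR input and 7040 in the shControl input (5.29-fold lower). The factor SREBF1, which drives fatty acid synthesis genes, had 637 counts in the shHuR input and 3231 in the shControl input (4.73-fold lower). The called members thus included the sensor, the desaturases and the factor. A strict sterol element, TCACNCCAC on either strand, stood in 1 of 18 cholesterol promoters and in 1.07% of all, and a CCAAT box stood in 83.3% of these 18, against 37.0% of all.

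Genes of fatty acid use and of FOXO-linked metabolism had 6 higher and 4 lower of 25 (median 0.27). These are 24% and 16%, against 12% and 15.9% of all genes. PDK4, the kinase that shuts pyruvate dehydrogenase, had 1321 counts in the shHuR input and 0 in the shControl input. ARRDC4, an arrestin linked to glucose uptake, had 4712 counts in the shHuR input and 369 in the shControl input (13.7-fold higher). PPARG, a nuclear receptor of fat storage, was lower with 560 counts in the shHuR input and 2087 in the shControl input (3.48-fold lower). In glycolysis, 6 of 23 genes were higher and 0 lower (median 0.58). The glucose transporter SLC2A1 had 7133 counts in the shHuR input and 1828 in the shControl input (4.18-fold higher), hexokinase HK2 had 4032 counts in the shHuR input and 1205 in the shControl input (3.59-fold higher) and phosphoglycerate kinase PGK1 had 23236 counts in the shHuR input and 8108 in the shControl input (3.07-fold higher). These 3 sit at the entry and in the payoff stage of glycolysis.

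Of 26 amino acid genes under ATF4, 3 were higher and 10 lower (median -0.83). PHGDH, the first enzyme of serine synthesis, had 221 counts in the shHuR input and 4079 in the shControl input (17.2-fold lower). TRIB3, a pseudokinase induced by stress, had 249 counts in the shHuR input and 1673 in the shControl input (6.26-fold lower). STC2, a secreted glycoprotein, went the other way with 33773 counts in the shHuR input and 3932 in the shControl input (9.21-fold higher), and so did the cystine transporter SLC7A11 with 13770 counts in the shHuR input and 2456 in the shControl input (6.01-fold higher). The letters TTNCATCA of ATF4 sites stood in 3 of 21 promoters of this list (14.3%), against 1.63% of all and 1.54% of those of genes called lower.

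Lysosomal genes leaned to the higher side, with 13 of 31 higher and 2 lower (median 0.92). Cathepsin S, CTSS, had 295 counts in the shHuR input and 22 in the shControl input (14.4-fold higher), and acid ceramidase, ASAH1, had 5471 counts in the shHuR input and 1302 in the shControl input (4.51-fold higher). The cholesterol exporter NPC1 had 1415 counts in the shHuR input and 479 in the shControl input (3.17-fold higher). TFEB, a transcription factor of lysosomal genes, was lower with 80 counts in the shHuR input and 261 in the shControl input (3.04-fold lower). Autophagy genes had 4 higher and 0 lower of 27 (median 0.26), a share of 14.8% higher that is near the 12% of all genes. Among the higher ones were GABARAPL1, a membrane tag of autophagosomes, with 30773 counts in the shHuR input and 4662 in the shControl input (7.08-fold higher), and the mitophagy receptor BNIP3 with 6239 counts in the shHuR input and 2547 in the shControl input (2.63-fold higher). NRF2 and metal response genes had 3 higher and 2 lower of 18, led by the metallothioneins MT1X (342 shHuR and 103 shControl counts) and MT2A (8762 shHuR and 2981 shControl counts), a family of close copies. Their shares of 16.7% higher and 11.1% lower were also near those of all genes, 12% and 15.9%.

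Cytosolic ribosomal proteins lay almost all below 0. Of 81, 34 were lower and 0 higher, 79 had ratios below 0, the median was -0.97 and the range ran from -2.84 to 0.19. Together they made up 13099.6 CPM in the shHuR input and 28401 in the shControl input. RPLP0, of the ribosomal stalk, had 16278 counts in the shHuR input and 56208 in the shControl input (3.22-fold lower), and RPS2, of the small subunit, had 10814 counts in the shHuR input and 36847 in the shControl input (3.18-fold lower). Many of these genes have processed pseudogenes, so single values are uncertain. The elongation factors showed the same direction at under 2-fold: EEF1A1 had 230378 counts in the shHuR input and 416487 in the shControl input (1.69-fold lower) and EEF2 had 70268 counts in the shHuR input and 144305 in the shControl input (1.91-fold lower). Translation factors had 0 higher and 3 lower of 32 (median -0.34), with EIF4EBP1, a repressor of cap-dependent translation, at 410 counts in the shHuR input and 2653 in the shControl input (6.03-fold lower). Ribosome biogenesis genes had 0 higher and 1 lower of 29 (median -0.19).

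Several basic machineries stood near the median of all genes. Nuclear-encoded respiratory chain genes had 1 higher and 0 lower of 45 (median 0.03, range -0.77 to 1.10). The 30 proteasome subunits had 0 called on either side (median 0.14). Aminoacyl-tRNA synthetases had 0 higher and 1 lower of 20, heat shock genes 1 higher and 0 lower of 14, and chaperones of the endoplasmic reticulum 2 higher and 0 lower of 17, where DNAJB9, a stress-induced co-chaperone, had 1017 shHuR and 250 shControl counts. Targets of p53 had 4 higher and 1 lower of 28 (median -0.02): the decoy receptor TNFRSF10C had 263 counts in the shHuR input and 46 in the shControl input (6.13-fold higher), and the death gene BBC3, or PUMA, had 161 counts in the shHuR input and 583 in the shControl input (3.38-fold lower), with a log2 ratio of -0.88, under 2-fold, once the trends were removed. BCL2 family genes had 0 higher and 4 lower of 13, and both the survival gene BCL2 (23 shHuR and 271 shControl counts) and the death gene BCL2L11, or BIM (43 shHuR and 420 shControl counts), were lower.

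RNA-binding proteins that share HuR's target sites lay on both sides. Of 14 AU-rich element binders, 2 were higher and 4 lower, the targeted ELAVL1 included (median -0.36). These are 14.3% and 28.6%, against 12% and 15.9% of all genes, in a short list whose lower side holds the hairpin's own target. ZFP36L2, which promotes decay, had 1062 counts in the shHuR input and 5056 in the shControl input (4.44-fold lower), while its paralogue ZFP36L1 had 24959 counts in the shHuR input and 12067 in the shControl input (2.22-fold higher). HNRNPD, or AUF1, had 1372 counts in the shHuR input and 3845 in the shControl input (2.61-fold lower), and TIA1, a translational silencer, had 844 counts in the shHuR input and 1927 in the shControl input (2.13-fold lower). Splicing factors of the hnRNP and SR families had 0 higher and 4 lower of 28 (median -0.42), with HNRNPA1 at 5096 counts in the shHuR input and 21052 in the shControl input (3.85-fold lower); it too has many pseudogenes. The mRNA decay machinery had 0 higher and 1 lower of 32 (median -0.06). Among ADAR enzymes, sirtuins and enzymes of NAD, with 2 higher and 1 lower of 12, ADAR had 9406 counts in the shHuR input and 12890 in the shControl input (1.28-fold lower) and NAMPT, the rate-limiting enzyme of NAD salvage, had 9039 counts in the shHuR input and 2569 in the shControl input (3.77-fold higher). Long noncoding RNAs had 1 higher and 2 lower of 22, with NEAT1, the scaffold of paraspeckles, at 6418 shHuR and 3016 shControl counts and under 2-fold (log2 ratio 0.94) with the trends removed. Of 10 structural RNAs, 4 had an ID and 2 of these were lower, among them the nucleolar SNORD3A with 452 shHuR and 1095 shControl counts. The 13 mitochondrially encoded genes matched no ID and are not analysed here.

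Transcripts reported as HuR targets lay on both sides, with 7 higher and 8 lower of 32 and a median of 0.07. Of this list 21.9% was higher and 25% lower, against 12% and 15.9% of all genes. The higher ones were led by CXCL8 and PTGS2, followed by IL6, an inflammatory cytokine, with 880 counts in the shHuR input and 200 in the shControl input (4.72-fold higher). The lower ones were led by the survival gene BIRC5, a mitotic gene as well, with 99 counts in the shHuR input and 3143 in the shControl input (29.6-fold lower), BCL2, cyclin CCNA2 with 230 counts in the shHuR input and 1952 in the shControl input (7.91-fold lower) and PTMA, a small acidic nuclear protein, with 2774 counts in the shHuR input and 20187 in the shControl input (6.79-fold lower). Stretches of 30 bases of the 3′ UTR with the most AUUUA pentamers are shown for picked genes of either direction. They are written as DNA with ATTTA, letters HuR is known to bind, in capitals. They are from the representative GENCODE 29 transcripts on GRCh38. Of 11943 counted protein-coding genes with a 3′ UTR record, 3411 had 0 AUUUA. The pentamer is thus common, and its presence in these genes is no result about them.
CXCL8, chr4:73743111-73743140, plus strand: cctATTTAttATTTAtgtATTTATTTAagc
CXCL1, chr4:73870673-73870702, plus strand: aagtcttctATTTATTTATTTAttcattag
IL1B, chr2:112829995-112830024, minus strand: cgcttccctATTTATTTATTTAtttgtttg
PTGS2, chr1:186674317-186674346, minus strand: aatgatcatATTTATTTATTTAtatgaacc
CSF2, chr5:132076076-132076105, plus strand: aaaatATTTATTTATTTATTTATTTAagtt
FOS, chr14:75282057-75282086, plus strand: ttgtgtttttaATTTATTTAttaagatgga
BCL2, chr18:63128353-63128382, minus strand: gaaaaaaagATTTATTTATTTAagacagtc
ELAVL1, chr19:7961839-7961868, minus strand: ttATTTAtacctATTTAtgtATTTATTTAt
The first 5 belong to genes called higher and the last 3 to genes called lower. ELAVL1 is the target of the hairpin, so its lower level was aimed at and is no example of a direction. The whole 3′ UTR of CXCL8 held 9 ATTTA in 1252 bases, that of PTGS2 22 in 2562, that of BCL2 13 in 5279 and that of ELAVL1 13 in 4904.

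Across protein-coding genes with a 3′ UTR, the ratio went up with the number of AUUUA. The median log2 ratio was -0.25 for 3411 genes with 0 AUUUA, -0.10 for 1962 with 1, -0.01 for 2895 with 2 to 4, 0.14 for 2061 with 5 to 9 and 0.23 for 1614 with 10 or more. In the group with 10 or more, 18.1% of genes were higher and 8.92% lower, against 6.68% higher and 20.2% lower in the group with 0. GC content moved with this: its median was 39.7% in transcripts with 10 or more AUUUA and 57.5% in those with 0. Over 5 classes of GC content with like numbers of genes, low to high, the median ratio was 0.21, 0.16, 0.04, -0.12 and -0.45, and the share called lower was 9.46% in the lowest class and 26.7% in the highest. Once the trends with GC content and length were taken out, the medians of the 5 AUUUA groups lay between -0.01 and 0.03. As the number of AUUUA goes with GC content, this removal cannot tell the 2 apart. Within 3 classes of GC content, a split chosen after seeing the data, genes with 5 or more AUUUA had medians of 0.24, 0.09 and -0.32 from the low to the high class. Genes with 0 had 0.11, -0.05 and -0.38 in the same classes.

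The amount of a transcript recovered with the HuR antibody was read in shADAR1 cells, whose 2 libraries are not part of the compared pair. Of 12574 genes with enough counts there, 3497 were recovered at least 2-fold, as precipitate over input. Their median log2 ratio was 0.09, with 14.6% higher and 12.1% lower. The other 9077 had a median of -0.05, with 9.87% higher and 15.02% lower. Over finer classes of recovery the median did not keep one direction: it was -0.14 below a log2 recovery of -2, 0.11 between 2 and 3 and -0.04 at 3 or more. With the GC and length trends removed, the recovered genes had a median of 0.02 and the others 0.01. Recovery read in shControl cells, which share the shControl input with the compared pair, gave medians of 0.12 for recovered genes and -0.12 for the rest, or 0.01 for recovered genes and -0.04 for the rest with trends removed. No mock precipitate was used here, so recovery is not a measure of binding alone.

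**Figure D4:**
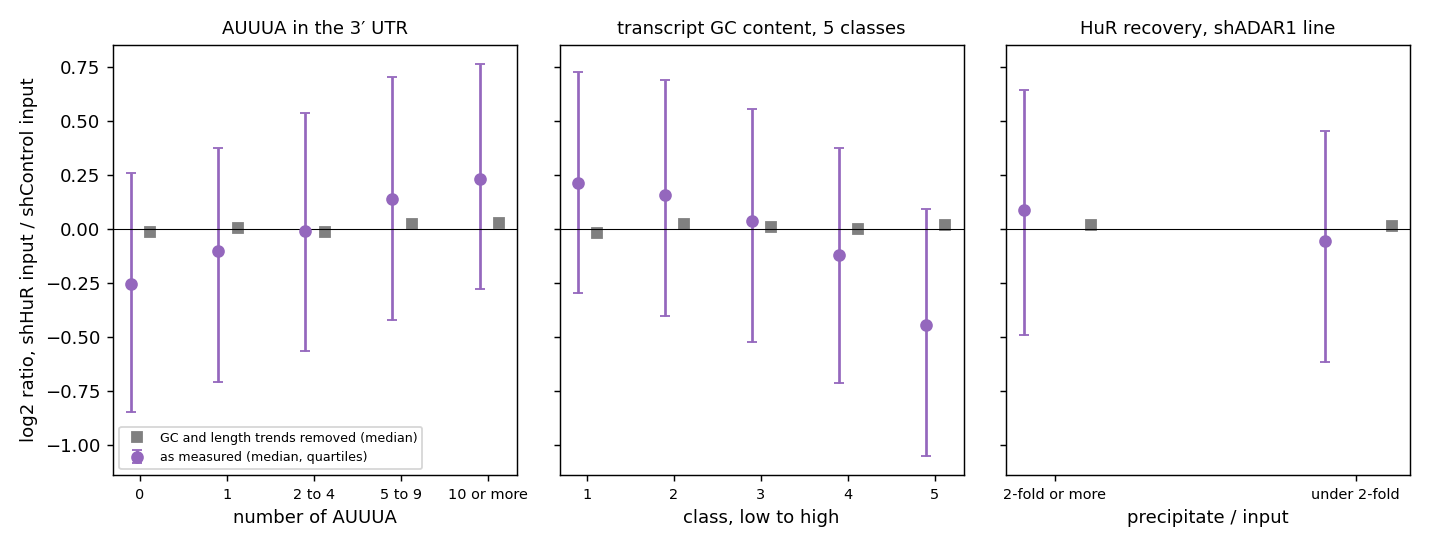
Median log2 ratio of the shHuR input to the shControl input, with quartiles as bars, by number of AUUUA in the 3′ UTR, by class of transcript GC content and by recovery with the HuR antibody in shADAR1 cells; grey squares are medians with GC and length trends removed. The medians step from -0.25 to 0.23 over the AUUUA groups and from 0.21 to -0.45 over the GC classes. The grey squares lie at about 0, which over the GC classes follows from the removal itself.

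Other properties were read in the same way. Over 5 classes of transcript length, the median was -0.14 in the shortest and 0.10 in the longest. Long intergenic noncoding RNAs had a median of 0.26, with 24.9% of 261 genes higher and 11.5% lower. Processed pseudogenes had 30.3% of 66 genes lower. Chromosome medians lay between -0.23 on chromosome 22 and 0.18 on chromosome 5; median GC content was 56.8% on the first and 44.4% on the second, and with trends removed the medians were -0.02 and 0.09. Among genes whose higher count was 50 to 99, 21.3% were higher and 25.1% lower, where counting error is widest. Among those with 10000 or more, 20.4% were higher and 13.3% lower.

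Gains and losses in CPM were ranked among genes with a symbol. After THBS1, the largest gains were in SOD2, mitochondrial superoxide dismutase, with 108169 counts in the shHuR input and 29919 in the shControl input (3.88-fold higher), in CCND1 and in FTL, ferritin light chain, with 208000 counts in the shHuR input and 157265 in the shControl input (1.42-fold higher). Next came the hyaluronan receptor CD44 with 77474 counts in the shHuR input and 25167 in the shControl input (3.30-fold higher) and AKR1B1, an aldose reductase, with 60804 counts in the shHuR input and 11309 in the shControl input (5.77-fold higher). SPARC, a collagen-binding matrix protein (74046 shHuR and 26129 shControl counts), and ANXA5, annexin A5 (83874 shHuR and 38675 shControl counts), close this group, and all of it was higher by less than 6-fold. The largest losses among genes with a symbol, beside those already given, were in VIM, vimentin, with 97894 counts in the shHuR input and 187848 in the shControl input (1.79-fold lower), in the actin-binding peptide gene TMSB10 with 52721 counts in the shHuR input and 124066 in the shControl input (2.19-fold lower) and in cytoplasmic gamma-actin, ACTG1, with 125283 counts in the shHuR input and 194478 in the shControl input (1.45-fold lower). The small nuclear RNA 7SK also lost, with 49445 shHuR and 130022 shControl counts, but shares nearly all of its exon with other records and is uncertain. A pair of IDs without a symbol, ENSG00000265150 and ENSG00000258486, took 6.07% and 4.43% of the shHuR input, against 7.48% and 6.13% of the shControl input. They lost more CPM than any gene with a symbol: ENSG00000265150 had 61298 CPM in the shHuR input and 74126 in the shControl input, and ENSG00000258486 had 44721 CPM in the shHuR input and 60749 in the shControl input.

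At the ends of the range stood genes of varied function. Beside those already named, the highest ratios included SLCO2B1, an organic anion transporter (712 shHuR and 0 shControl counts), TYRP1, a melanosome enzyme (606 shHuR and 0 shControl counts), ENPP4, a cell-surface hydrolase (485 shHuR and 0 shControl counts), and SORBS2, a cytoskeletal adaptor (326 shHuR and 0 shControl counts). EHF, an epithelial ETS factor, had 1191 shHuR and 2 shControl counts, MMP3, stromelysin 1, had 1186 shHuR and 2 shControl counts, LINC02154 had 787 shHuR and 1 shControl counts and TMEM178B had 4942 shHuR and 18 shControl counts. The lowest included SCN7A, a sodium channel (0 shHuR and 176 shControl counts), PPL, periplakin (0 shHuR and 151 shControl counts), TROAP, a spindle-associated protein (5 shHuR and 655 shControl counts), and BAALC (16 shHuR and 1241 shControl counts). Also among them were SAPCD2 (7 shHuR and 606 shControl counts), TMSB15A (1 shHuR and 195 shControl counts), COL15A1, a basement membrane collagen (6 shHuR and 526 shControl counts), and TMEM119 (41 shHuR and 2768 shControl counts). A pair of readthrough genes in this group, DNAJC25-GNG10 and TGIF2-RAB5IF, had 0 shHuR counts each, against 448 and 144 shControl counts; reads of readthrough genes cannot be told apart from those of their parts.

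The precipitates of the same 2 cell lines form a pair that shares no library with the inputs. Of 11846 of the genes with at least 50 counts in one precipitate, 2450 were higher in the shHuR precipitate (20.7%) and 2873 lower (24.3%), against the shControl precipitate. Among 1345 genes called higher in the input that could be read there, 1095 (81.4%) had a positive ratio and 708 (52.6%) were at least 2-fold higher. Among 1623 called lower, 1372 (84.5%) had a negative ratio and 1050 (64.7%) were at least 2-fold lower. Over all 11846 genes, 63.5% had the same sign in both pairs. The list medians in the precipitates were -3.52 for mitosis, -1.76 for replication and 3.93 for chemokines, on the side they had in the inputs. Ribosomal proteins, at -0.97 in the inputs, had a median of 0.00 in the precipitates. Across these genes, which are not independent, the ratios of both pairs had a Spearman correlation of 0.48. Both pairs come from the same cell lines, and HuR itself was lower in the shHuR line, so that recovery also enters the precipitates.

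**Figure D5:**
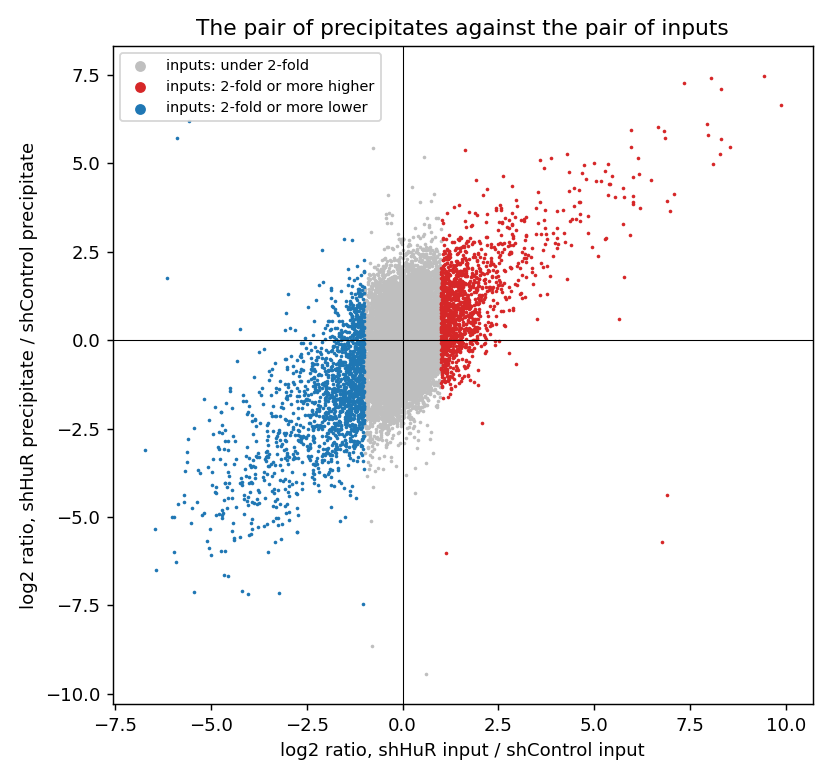
Log2 ratio of the shHuR precipitate to the shControl precipitate (vertical) against log2 ratio of the shHuR input to the shControl input (horizontal) for 11846 genes, red for called higher in the inputs, blue for called lower and grey for under 2-fold. Of the red genes 81.4% lie above 0, and of the blue genes 84.5% lie below 0.

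The shADAR1 input was set against the same shControl input, so both comparisons share that library, and their values are given side by side only. Mitosis genes had a median of -3.78 in the shHuR input and -1.12 in the shADAR1 input, replication genes -1.84 in shHuR and -0.67 in shADAR1, and chemokines 4.68 in shHuR and 3.96 in shADAR1. Cholesterol synthesis had -0.98 in the shHuR input and -1.22 in the shADAR1 input. Growth factors and the IGF axis had 0.87 in shHuR and 1.22 in shADAR1, and TGF-beta and BMP genes 0.95 in shHuR and 1.02 in shADAR1. Interleukins and their receptors had 0.94 in shHuR and 0.86 in shADAR1, and metalloproteases and inhibitors 0.77 in shHuR and 0.38 in shADAR1. Interferon-stimulated genes had -0.23 in the shHuR input and 1.30 in the shADAR1 input, values of opposite sign. Some secreted factors differed in the raw counts. CCL20 had 229 counts in the shHuR input, 4 in the shADAR1 input and 0 in the shControl input, and IL1A had 206 shHuR, 5 shADAR1 and 1 shControl counts. CXCL6 had 340 shHuR, 626 shADAR1 and 1 shControl counts, and COL11A1 had 2843 shHuR, 67 shADAR1 and 124 shControl counts. CXCL1 was high in both, with 4142 shHuR, 3260 shADAR1 and 16 shControl counts. Differences between the shHuR and shADAR1 inputs were not tested.

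Markers of the labelled cell type were present in both libraries. All 14 fibroblast markers were counted, with 3 higher and 3 lower and a median of -0.03; summed, they made up 8058 CPM in the shHuR input and 12011 in the shControl input. TCF21, a factor of lung mesenchyme, had 18193 counts in the shHuR input and 2798 in the shControl input (6.97-fold higher). LUM (log2 ratio 2.40) and FAP (1.09) were also called higher. The 3 lower ones were TBX4 (log2 ratio -2.20), S100A4 (-1.85) and COL1A1 (-1.31). FAP and COL1A1 ended under 2-fold with GC and length trends removed. Of 11 epithelial markers 3 were counted and all 3 were lower, with summed levels of 55.5 CPM in the shHuR input and 119.6 in the shControl input. KRT18, 1 of these 3, was under 2-fold with GC and length trends removed (log2 ratio -0.66) and with upper-quartile scaling (-0.96). SFTPC, SCGB1A1, KRT5, NKX2-1 and ESRP1, which define lung epithelium, were at 0 in both. Of 10 leukocyte markers 1 was counted, CD68, whose exons overlap another gene; PTPRC, which marks all leukocytes, had 5 shHuR and 2 shControl counts. Of 10 endothelial markers 3 were counted, with summed levels over the list of 37.8 CPM in the shHuR input and 21.6 in the shControl input. TEK, a receptor of angiopoietins, was higher (1270 shHuR and 641 shControl counts), though at just under 2-fold with GC and length trends removed, while VWF (21 shHuR and 70 shControl counts) and ROBO4 (11 shHuR and 56 shControl counts) were lower. CDH5, KDR, ERG and EMCN were at 0 in both. The summed leukocyte markers stood at 30.02 CPM in the shHuR input and 31.95 in the shControl input. Of smooth muscle and pericyte markers 7 of 8 were counted, with 2 higher and 1 lower and summed levels of 935 CPM in the shHuR input and 507 in the shControl input. RGS5, a pericyte marker, had 1687 counts in the shHuR input and 281 in the shControl input (6.44-fold higher). DES was the lower one, with 7 counts in the shHuR input and 625 in the shControl input. Neural markers had 2 of 8 counted, with TUBB3, a tubulin, at 2727 shHuR and 13251 shControl counts, and mesothelial markers had 2 of 6, KRT19 and CALB2, both lower. The part of these cell types in the contractile and keratin values was not tested.

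At the count limit, 147 genes had 50 to 54 counts in their higher library, of which 30 were at least 2-fold higher and 36 at least 2-fold lower. Just outside it, 186 genes had 45 to 49 counts, of which 45 were at least 2-fold higher and 47 at least 2-fold lower. LIMS3 (50 shHuR and 0 shControl counts) and GUSBP18 (12 shHuR and 50 shControl counts) lay just inside. PDZK1IP1 (49 shHuR and 0 shControl counts) and CALML4 (0 shHuR and 49 shControl counts, overlapping another gene) lay just outside.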

How the data were processed

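The deposited values are expected counts per gene, made by the authors with RSEM 1.2.3 against hg19 (GRCh37), per the submitters' processing notes. They are whole numbers over 57736 Ensembl gene IDs in 6 libraries. The aligner, annotation release, filters and strandedness of counting are not given in the sources used here, so antisense genes cannot be told apart from their partners. Precipitates were made with an antibody against HuR and a Magna RIP kit, and libraries with the KAPA RNA HyperPrep kit, per the labels' protocols. The libraries were grouped by their titles and each column was matched to its library by its header.

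A table of gene names gave symbols to 39501 IDs, and GENCODE 29 gave 512 others; where several IDs had one symbol, the most abundant was kept and 1154 were not. Ratios were computed after TMM scaling in edgeR 4.0.16, with a prior count of 2 for calls and medians. Genes whose exons overlap other genes over more than 50% of their length, readthrough genes and members of families of close copies are treated as uncertain. GC content, length and 3′ UTRs came from 1 representative GENCODE 29 transcript a gene (13054 counted genes, 97.5%), and trends were removed by local regression with a span of 0.3. Promoters came from RefSeq on GRCh38.p14, matched by symbol for 10202 of the 13390 genes, with 250 bases before the start and 50 after it. Coordinates are given only for these sequences and for the 3′ UTR stretches from GENCODE 29. Motifs were searched on both strands.

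Named genes are HuR, ADAR, CDKN2A, CDKN1A, SIRT1 and LMNB1, the 12 highest and 12 lowest ratios, the 8 largest gains and 8 largest losses in CPM (counts scaled to library size) among genes with a symbol, and up to 4 called members a side in each of 55 gene lists and 7 marker lists; others are marked in the text. Some named genes are not reported here. The members and the lists were chosen with earlier results of these data known. The ratio and its interval were tested on simulated counts. Alternatives were other scalings, count minimums, prior counts and fold limits, removal of the trends, and protein-coding genes only. The RNA-seq experiment of the series was not used here.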

Additional observations from a re-analysis of the deposited data

How the results depend on the processing

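No paired analysis was possible because each group held 1 library. Over 5 other scalings, priors of 0.5 and 8, protein-coding genes only and removal of GC and length trends, the counts of higher and lower genes stayed within 1.5 times of 1610 and 2123. They moved further with a 1.5-fold limit (3061 higher and 3566 lower), with a 4-fold limit (458 and 816) and without a count minimum (4193 and 3972). With a minimum of 10 counts, 2524 genes were higher. The genes recovered with the HuR antibody in shADAR1 cells had a median log2 ratio 0.14 above that of the others; this difference was 0.0070 with the trends removed and 0.24 with recovery read in shControl cells. The cause was not tested. The 299 genes named by the rule beside ELAVL1 kept their sign under the 8 alternatives tried for them. Most of them were named for ratios of 2-fold or more, so a kept sign says little about how robust they are. Of 291 called genes, ELAVL1 included, 29 ended under 2-fold under at least 1 alternative, 26 of them with the trends removed. Of 61 list medians, 14 changed sign under at least 1 alternative, all of them within 0.50 of 0: those of ADAR enzymes and sirtuins, BCL2 family, MHC class I, Notch and ephrin genes, tRNA synthetases, heat shock, keratins, respiratory chain, p53 targets, reported HuR targets, smooth muscle contractile genes, and fibroblast, leukocyte and smooth muscle markers. With 1 library a side, depth limits only the counting error, and the spread between cultures is unknown.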
